A study of Mus musculus with 16 samples.

Results

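Thymocytes were sorted at 4 stages named by their coreceptors, CD4 and CD8: DN cells carry neither, DP cells carry both, and the single positive SP4 and SP8 cells carry only CD4 or only CD8. Open chromatin was mapped by ATAC-seq, in which a transposase cuts accessible DNA. Peaks that shared at least 1 bp between the 4 stage lists were merged into 185978 regions, and 1268 of these held a DP peak and a SP8 peak but neither a DN nor a SP4 peak (0.682% of all merged regions). These DP-and-SP8-only regions were chosen by the peak calls themselves, so the calls and the heights of the DP and SP8 peaks are described without a test. Comparisons with intervals or tests are given only for position, sequence and neighbourhood. The choice did not use position or sequence. Neighbourhood is scored on SP4 and SP8 calls of other regions in the same lists, so it is not independent of the choice. The same 4 wild type C57BL/6J mice, 9 weeks old, gave all 4 stages by their labels, 16 libraries in all, and no other allele or treatment is labelled. Sorted cells lacked lineage markers. DN cells were negative for CD4, CD8 and CD3, DP cells carried CD4 and CD8, SP4 cells carried CD4 and CD3, and SP8 cells carried CD8 and CD3. The deposited data are 1 peak list per stage, called by the authors on the reads of the 4 mice together, so no value below has a spread between mice and no comparison between stages has a replicate check.

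In the thymus, DP cells express both CD4 and CD8 coreceptors and are selected on the affinity of their T cell receptor. Cells selected on MHC class I become SP8 cells, which transcribe *Cd8a* and *Cd8b1*. Cells selected on MHC class II become SP4 cells, which do not. RUNX3 is the central transcription factor of the CD8 lineage and silences *Cd4* and *Zbtb7b*, whereas ThPOK, the product of *Zbtb7b*, maintains the CD4 lineage. In the lists themselves, 21 of 22 genes of T cell receptor signalling had a peak within 500 bp of their start at DP and SP8, and 19 of 22 at DN and SP4. *Cd8a*, *Cd8b1*, *Cd4*, *Zbtb7b* and *Runx3* had such a peak at every stage, so openness at these gene starts did not separate the stages. Of 10 hepatocyte genes only *Ahsg* had a peak, at every stage, and of 10 B cell genes 3 to 5 had a peak, with *Cd79b*, *Ebf1* and *Blk* among them at all 4 stages. Of 10 genes in each further list, 6 myeloid, 5 natural killer and gamma delta and 5 neuron genes had a peak at DN, and 4, 3 and 2 to 3 at the later stages.

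Sequences of 200 bp (mm10, plus strand, 5′ to 3′, reference genome of RefSeq) centred on the mean of the DP and SP8 summits are shown for the members on which the description turns. Capitals mark a match, on either strand, of the CTCF core AGGGGGC or of the RUNX word TGTGGT, and the RUNX marking was added after the values were seen. The first 5 are among the 10 members with the highest peaks at both stages, and the windows of the other 5 are not shown. Of the windows shown, the *Prickle1* window held a CTCF core match and the D16Ertd472e and *Kcnc1* windows each held a RUNX word.
chr16:78524787-78524986, 15174 bp from D16Ertd472e: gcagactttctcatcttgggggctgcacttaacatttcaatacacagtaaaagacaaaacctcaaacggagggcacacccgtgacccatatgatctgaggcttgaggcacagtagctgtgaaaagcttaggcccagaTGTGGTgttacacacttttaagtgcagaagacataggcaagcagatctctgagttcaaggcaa
chr14:25387065-25387264, 71868 bp from Zmiz1: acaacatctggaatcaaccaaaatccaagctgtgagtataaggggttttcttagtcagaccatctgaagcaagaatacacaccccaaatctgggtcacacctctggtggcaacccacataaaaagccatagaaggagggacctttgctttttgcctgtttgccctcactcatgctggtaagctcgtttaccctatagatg
chr15:93879855-93880054, 283973 bp from Prickle1: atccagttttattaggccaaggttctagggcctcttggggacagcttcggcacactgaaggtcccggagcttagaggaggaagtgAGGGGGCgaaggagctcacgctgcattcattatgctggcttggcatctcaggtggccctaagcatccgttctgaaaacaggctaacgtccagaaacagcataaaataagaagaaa
chr7:46402742-46402941, Kcnc1 intron: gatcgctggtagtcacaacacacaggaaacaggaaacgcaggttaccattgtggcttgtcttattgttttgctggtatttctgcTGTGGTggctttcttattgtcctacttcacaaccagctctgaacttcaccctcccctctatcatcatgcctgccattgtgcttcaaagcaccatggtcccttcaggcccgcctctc
chr3:37456082-37456281, Spata5 intron: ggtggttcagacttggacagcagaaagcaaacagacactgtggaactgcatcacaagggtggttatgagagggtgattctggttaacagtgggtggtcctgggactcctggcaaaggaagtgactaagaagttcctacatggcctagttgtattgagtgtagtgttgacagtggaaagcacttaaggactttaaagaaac

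The next 4 are all members near *Cd8a* and *Cd8b1*. Their windows held no CTCF core match, and those past *Cd8a* and in *Rmnd5a* each held 1 RUNX word.
chr6:71353096-71353295, 15648 bp past Cd8b1: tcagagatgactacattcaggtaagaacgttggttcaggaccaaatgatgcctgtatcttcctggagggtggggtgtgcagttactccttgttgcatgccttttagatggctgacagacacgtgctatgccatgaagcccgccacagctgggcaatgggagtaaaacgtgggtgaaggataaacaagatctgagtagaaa
chr6:71375131-71375330, Cd8a intron: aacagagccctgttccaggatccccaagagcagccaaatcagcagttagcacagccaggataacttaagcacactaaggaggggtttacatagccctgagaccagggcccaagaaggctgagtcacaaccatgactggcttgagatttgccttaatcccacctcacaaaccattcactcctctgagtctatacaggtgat
chr6:71381169-71381368, 1975 bp past Cd8a: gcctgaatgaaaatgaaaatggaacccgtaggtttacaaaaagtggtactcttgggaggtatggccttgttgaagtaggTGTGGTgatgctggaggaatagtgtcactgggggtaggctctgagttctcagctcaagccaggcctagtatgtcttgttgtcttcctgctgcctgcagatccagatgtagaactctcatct
chr6:71394881-71395080, Rmnd5a intron: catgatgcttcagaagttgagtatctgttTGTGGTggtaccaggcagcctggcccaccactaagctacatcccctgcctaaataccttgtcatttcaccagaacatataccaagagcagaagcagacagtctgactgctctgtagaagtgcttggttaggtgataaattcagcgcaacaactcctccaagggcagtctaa

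The last 3, chosen after the values were seen, are the members with the next highest peaks among those with a CTCF core match. Each held 1 match.
chr13:38967015-38967214, 6138 bp from Slc35b3: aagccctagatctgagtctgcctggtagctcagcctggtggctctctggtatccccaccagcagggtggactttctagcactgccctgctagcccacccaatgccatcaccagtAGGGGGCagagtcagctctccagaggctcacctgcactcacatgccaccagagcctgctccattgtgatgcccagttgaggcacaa
chr9:22026038-22026237, in Elavl3: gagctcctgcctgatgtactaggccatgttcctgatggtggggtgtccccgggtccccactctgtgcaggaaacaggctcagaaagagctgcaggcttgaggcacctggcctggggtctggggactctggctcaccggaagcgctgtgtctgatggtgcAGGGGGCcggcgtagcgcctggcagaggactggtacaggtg
chr7:81834892-81835091, 5482 bp from Btbd1: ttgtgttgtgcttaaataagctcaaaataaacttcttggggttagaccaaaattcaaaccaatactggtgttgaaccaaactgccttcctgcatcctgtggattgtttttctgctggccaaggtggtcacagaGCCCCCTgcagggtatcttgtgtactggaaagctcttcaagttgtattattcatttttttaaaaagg

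In the full lists the DP-and-SP8-only class was the smallest of the 6 classes called at exactly 2 stages. It compared with 2302 DP-and-SP4-only regions, 10401 regions at DN and DP, 7101 at SP4 and SP8, 5197 at DN and SP4 and 3921 at DN and SP8. A further 9619 regions were called at DP only, 7831 at SP8 only and 63369 at all 4 stages. The lists differed in length, from 104411 peaks at SP8 to 150139 at DN. With equal numbers of peaks from each list the DP-and-SP8-only class would hold 2856 regions. The members held 1278 of 107110 DP peaks (1.19%) and 1270 of 104411 SP8 peaks (1.22%), and 12 members held more than 1 peak of a stage. On the 19 autosomes the members made up between 0.51% (chromosome 8) and 0.801% (chromosome 11) of the merged regions. The 95% Wilson intervals of these shares, which cover counting error only, were 0.382% to 0.679% and 0.664% to 0.965%.

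Most members were low peaks. Height is given here as the percentile of a peak's fold enrichment over local background within its own stage list. The median percentile was 19.9 at DP (quartiles 7.7 and 34.8) and 16.8 at SP8 (7.45 and 30.3), against 68.2 and 67.1 for regions called at all 4 stages. DP-only peaks (median 19.3) and SP8-only peaks (median 17.1) were as low, and DP-and-SP4-only regions lay at 26.5 for DP and 26.9 for SP4. The median fold enrichment of the members was 3.60 at DP and 3.53 at SP8, and the median −log10 q-value 6.53 and 6.70. Both peaks were below percentile 25 in 569 members (44.9%), both were at percentile 50 or higher in 11, and both were at 75 or higher in 1. The DP peak ranked higher in 713 members and the SP8 peak in 555. Over the 1268 members the 2 percentiles had a Pearson r of 0.384 and a Spearman rho of 0.486, between values that share a locus and its local background. The DP and SP8 summits lay a median of 22.5 bp apart, within 25 bp in 677 members (53.4%) and within 100 bp in 1168 (92.1%), and the merged regions had a median width of 173 bp (quartiles 142 and 220).

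**Figure D1:**
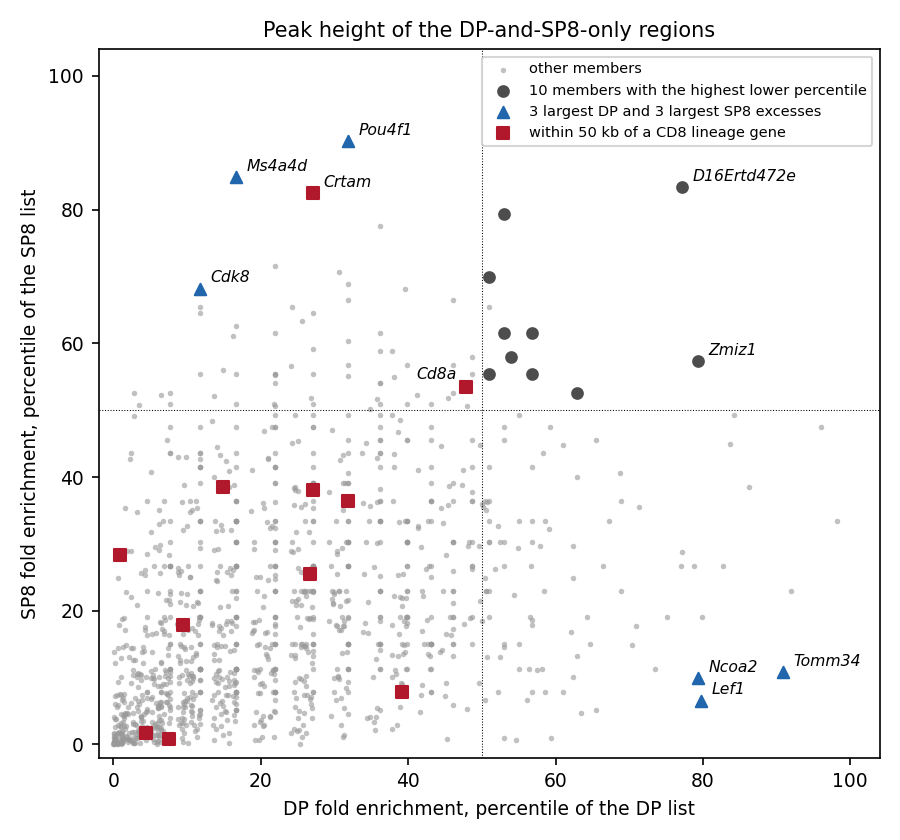
Height of the DP peak (x axis) and the SP8 peak (y axis) of each of the 1268 members, as percentiles of fold enrichment within the DP and SP8 lists; dotted lines mark percentile 50. Most points lie low on both axes, 11 lie in the upper right field, and *Cd8a* (the region 1975 bp past the gene) lies just left of it at 47.9 and 53.5.

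The choice of members rests on a threshold, and regions lay close to it on both sides. The members with the weakest calls were an intron region of *Dock2* (chr11:34544777-34544959) with a −log10 q-value of 1.36 at DP and 10.7 at SP8, a region 10009 bp from *Rab29* (chr1:131882897-131883010) with 3.06 and 1.58, and a region at a promoter inside *Ccdc6* (chr10:70110136-70110318) with 1.62 and 2.76. Just outside were 3 regions called at DP, SP8 and weakly at a further stage. A region at chr3:122619909-122620184 had a SP4 peak with a −log10 q-value of 1.48, and regions at chr17:88658978-88659230 and chr1:64757351-64757565 had DN peaks with 1.77 and 1.81. The lists do not say how much signal under the threshold a member had at DN or SP4.

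Peaks of the 2 absent stages were often close by. The nearest SP4 peak lay a median of 988.5 bp away and the nearest DN peak 888.5 bp. An SP4 peak was within 500 bp of 487 members (38.4%), a DN peak within 500 bp of 494 (39.0%) and either within 500 bp of 571 (45.03%). An SP4 peak lay within 10 kb of 1151 members (90.8%). Around DP-and-SP4-only regions the nearest SP8 peak lay further off, at a median of 2528 bp, and the nearest DN peak at 1874 bp. The nearest other merged region, of any class, was 511 bp from a member (median), against 916.5 bp from DP-and-SP4-only, 1060 bp from DP-only and 719 bp from SP8-only regions. It was called at all 4 stages for 47% of members (44.3% to 49.8%), 37.8% of DP-and-SP4-only, 36.1% of DP-only and 38.4% of SP8-only regions. Only 17 members had another member as the nearest region.

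The members lay closer to transcription starts than the classes most like them. A promoter, the 200 bp upstream of a transcription start site (TSS), was overlapped by 118 members (9.31%, 95% Wilson interval 7.83% to 11.03%), against 4.87% of DP-and-SP4-only, 4.32% of DP-only and 3.69% of SP8-only regions. The differences were 4.44 points (95% Newcombe interval 2.68 to 6.34), 4.98 points (3.44 to 6.75) and 5.62 points (4.07 to 7.38), with a higher share in members on 15, 18 and 17 of 19 chromosomes. All merged regions together reached 12.4%. A further 202 members (15.9%) overlapped an exon, 578 (45.6%) lay in an intron and 370 (29.2%) between genes. The median distance to the nearest TSS was 4530 bp for members and 6386, 6370 and 6342 bp for DP-and-SP4-only, DP-only and SP8-only regions. Two-sided Kolmogorov-Smirnov tests gave D = 0.103, 0.115 and 0.118 with Bonferroni-adjusted p = 1.76e-07, 7.63e-13 and 3.93e-13 over 3 comparisons (n = 1268 members), with regions and not mice as the units. Of the members, 87 held a TSS, 354 (27.9%) lay within 1 kb of one and 37 lay more than 50 kb away. Among the 697 members with no DN or SP4 peak within 500 bp, the promoter share was 4.59%. Its difference from DP-and-SP4-only regions chosen in the same way was 1.21 points (-0.45 to 3.19), an interval that includes 0. The median TSS distance of these members (n = 697) minus that of the class was then -1071 bp for DP-and-SP4-only (adjusted p = 0.0516) and -901 bp for SP8-only regions (adjusted p = 0.0923).

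**Figure D2:**
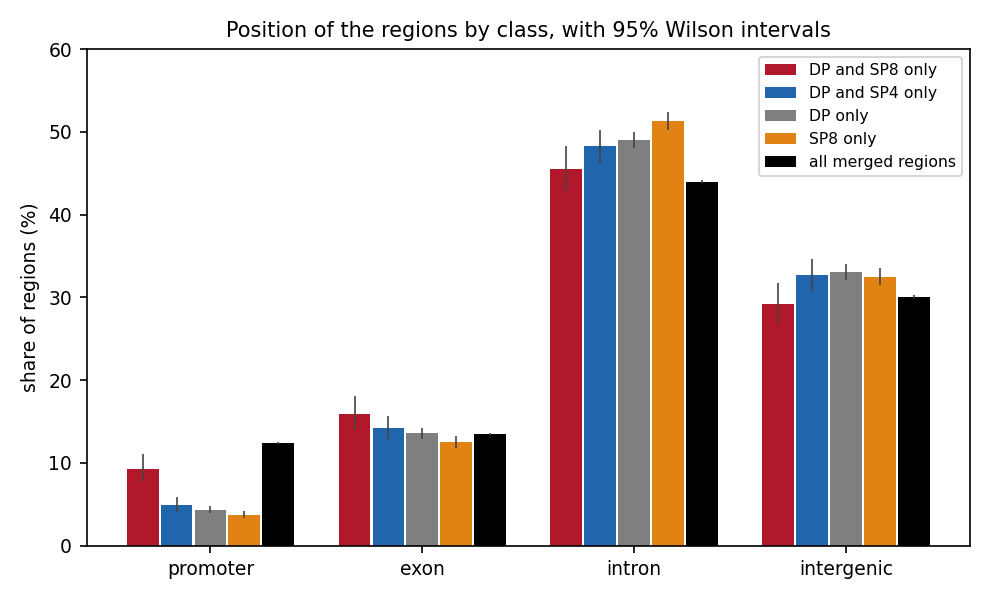
Share of regions (y axis, %) over a promoter, an exon, an intron or between genes (x axis) for the DP-and-SP8-only regions, 3 comparison classes and all merged regions; bars are shares and lines their 95% Wilson intervals. The promoter bar of the DP-and-SP8-only regions (9.31%) stands above those of the 3 comparison classes (3.69% to 4.87%) and below that of all merged regions (12.4%).

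The *Cd8* locus held 4 members. In the interval from 50 kb before *Cd8b1* to 50 kb past *Cd8a* (chr6:71272788-71429173) 54 merged regions were called, of which 20 were open at all 4 stages and 2 at DP and SP4 only. Among these 54 regions, 8 were called at SP8 and not SP4 and 9 at SP4 and not SP8. The highest member was an intergenic region 1975 bp past the end of *Cd8a* (chr6:71381149-71381377), with a DP peak at percentile 47.9 (fold enrichment 5.27) and a SP8 peak at 53.5 (6.62). Its SP8 peak had a −log10 q-value of 72.7, and the nearest SP4 peak lay 341 bp away. The remaining 3 were weak. An intron region of *Cd8a* itself (chr6:71375144-71375301) was at 7.52 (DP) and 0.852 (SP8), and a region 15648 bp past *Cd8b1* (chr6:71353143-71353312) at 4.44 and 1.73. An intron region of the adjacent *Rmnd5a* (chr6:71394881-71395069), a ubiquitin ligase subunit gene, was at 0.895 at DP and 28.3 at SP8.

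*Runx3* had 2 members, both intergenic and both away from its annotated body. The region 37283 bp upstream (chr4:135083190-135083368) was at percentile 26.7 (DP) and 25.6 (SP8), and the region 12857 bp past the gene (chr4:135190848-135190996) at 27.0 and 38.0. The nearest SP4 peaks lay 2154 and 6590 bp away. *Crtam*, which encodes a surface receptor of cytotoxic cells, held the member with the most significant SP8 peak of all, over an exon (chr9:40994081-40994680). That peak had a fold enrichment of 14.4, a −log10 q-value of 137 and percentile 82.5, against percentile 27.0 at DP. *Il2rb*, the beta chain of the receptors for interleukins 2 and 15, had 2 members 43735 and 43207 bp away in introns of *Kctd17* (chr15:78435308-78435520 and chr15:78435865-78436048), at SP8 percentiles 38.6 and 17.8 and DP percentiles 14.9 and 9.499. *Prf1*, the perforin gene, had 2 members in introns of *Adamts14* (chr10:61249934-61250082 and chr10:61258252-61258388), at 31.8 and 39.1 for DP and 36.4 and 7.91 for SP8. A link by distance does not say which gene a region acts on.

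Protein-coding genes with a member in the gene or within 50 kb numbered 2599 of 20807 (12.5%). Among them were 6 of the 19 genes of the CD8 lineage list (31.6%). The gene share was 36.4% for T cell receptor signalling, 42.9% for cytokine signalling and 50% for T cell transcription factors. In the other lists it was 0% to 30%, with 30% (3 of 10) in the neuron list. Because genes differ in the number of open regions around them, the members were also counted over regions. They made up 11 of the 454 merged regions near CD8 lineage genes (2.42%), against 0.682% of all merged regions. DP-and-SP4-only regions, a class of 1.24% of all merged regions, numbered 5 of these 454. The CD8 lineage members had medians of 26.7 (DP) and 28.3 (SP8) against 19.9 and 16.8 over all members. In 7 of the 11 the SP8 peak ranked above the DP peak, against 555 of all 1268 members (43.8%). Some of the 11 lie at the same locus, and the choice of members used these peaks, so the counts are a description only. Other cytotoxic genes of the list, among them *Gzmb*, *Nkg7*, *Eomes* and *Itgae*, had no member.

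**Figure D3:**
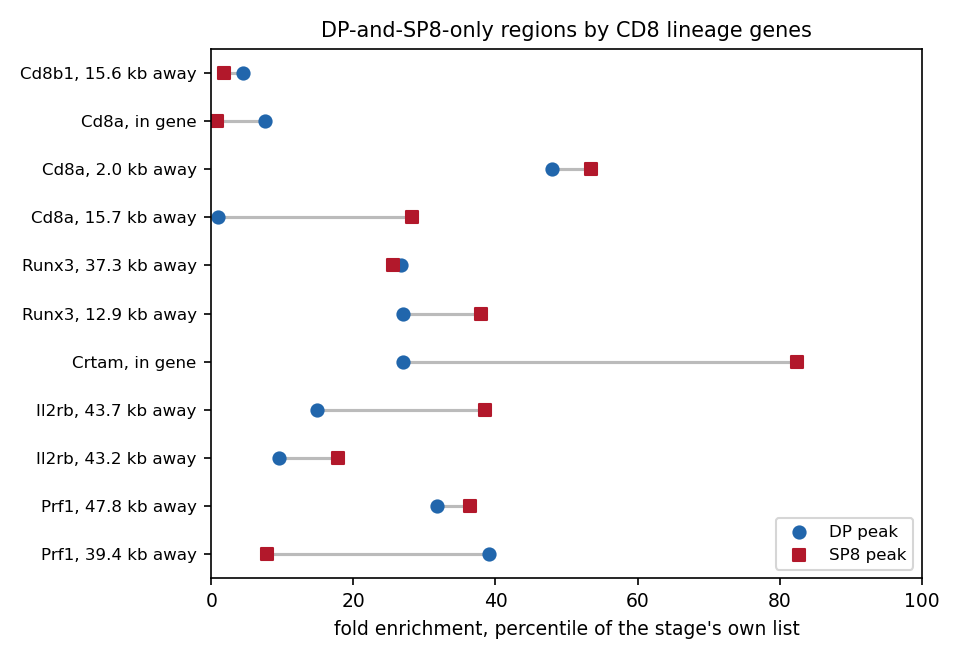
Percentile of fold enrichment (x axis) of the DP peak (circles) and the SP8 peak (squares) in each of the 11 DP-and-SP8-only regions in or within 50 kb of a CD8 lineage gene (y axis, with the distance to the nearest listed gene). The *Crtam* region has the highest SP8 peak (82.5), and 3 of the 4 regions at the *Cd8* locus have a DP peak under percentile 8.

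The CD4 lineage and DP programme lists gave few members. For the CD4 lineage, 2 of 10 genes and 2 of 316 regions (0.633%) were found, a share close to that of all merged regions. A *Gata3* intron region (chr2:9872614-9872919) was among the lowest members, at percentiles 0.356 and 0.727, and a region 5864 bp from *Cxcr5* (chr9:44567742-44567904) was at 20.9 and 42.9, with an SP4 peak 27 bp away. *Gata3* is required for CD4 lineage choice and *Cxcr5* encodes the homing receptor of follicular cells. *Cd4* and *Zbtb7b* had no member. The DP programme, with genes of antigen receptor rearrangement and positive selection, had 2 of 12 genes and 2 of 455 regions (0.44%), and 14 of these 455 regions were DP-and-SP4-only, a class of 1.24% of all merged regions. The members were introns of *Tcf12*, which encodes the E protein HEB (chr9:72073264-72073403, percentiles 39.8 and 33.5), and of *Themis*, needed for positive selection (chr10:28684348-28684462, 21.9 and 36.3). *Rag1* and *Rag2* had none.

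Genes of T cell transcription factors had the most members of any list, 14 of 1087 regions (1.29%) at 9 of 18 genes, but these members were low. Their median percentiles were 4.81 at DP and 1.67 at SP8, and in 13 of 14 both peaks were under percentile 25. They included 3 introns of *Bcl11b*, and 2 regions each in or within 50 kb of *Ets1*, *Fli1* and *Satb1*. There was 1 each in or within 50 kb of *Tcf7*, *Lef1*, *Ikzf3*, *Id3* and *Myb*. The exception was the *Lef1* intron (chr3:131141539-131141843), at 79.8 for DP and 6.55 for SP8. T cell receptor signalling genes behaved alike in height, with 9 of 785 regions (1.15%), medians of 1.70 and 4.02 and 8 of 9 members with both peaks under percentile 25. Those members lay in or within 50 kb of *Lcp2*, *Plcg1*, *Cd247*, *Ptprc*, *Nr4a1*, *Egr1*, *Egr2* and *Egr3*. The *Plcg1* and *Egr2* regions overlapped promoters, and the *Egr1* and *Egr3* regions lay 23143 and 9518 bp from those genes. Cytokine signalling genes had 9 of 577 regions (1.56%), 3 of them around *Socs1*, the feedback inhibitor of JAK and STAT signalling, and 2 near *Stat3*. Genes of maturation and egress had 4 of 581 (0.689%), in or within 50 kb of *Foxo1*, *Foxp1* and *Ccr9*. MHC class I and interferon genes had 1 of 371 (0.27%), which lay near *Psmb8*, *Psmb9*, *Tap1* and *Tap2* together. The lists of other cell types gave 1 of 272 regions for B cells, 2 of 288 for myeloid cells, 1 of 280 for natural killer and gamma delta cells, 4 of 270 (1.48%) for neurons and 0 of 111 for hepatocytes. The neuron share, on 4 regions, was above those of both the T cell transcription factor and the T cell receptor signalling lists.

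The 10 members with the highest peaks at both stages are ordered here by the lower of their 2 percentiles. The region 15174 bp from D16Ertd472e (chr16:78524507-78525163) was the only member with both peaks above percentile 75, at 77.2 (DP, fold enrichment 10.7) and 83.4 (SP8, 14.8), and was 657 bp wide. A region 71868 bp upstream of the coactivator gene *Zmiz1* (chr14:25386896-25387316), in an intron of another annotated transcript, was at 79.3 and 57.4. An intron region of *Wwox* was at 56.8 and 61.5, and a region 283973 bp upstream of *Prickle1* (chr15:93879865-93880020) at 56.8 and 55.5. The other 6 of the 10 were introns of *Kcnc1*, *Spata5* and *Mthfd1l*, an exon region of *Pdcd1lg2*, which encodes the PD-1 ligand PD-L2, and intergenic regions near *Ndufs4* and *Susd1*. These 6 ranged from 51.0 to 63.0 at DP and from 52.6 to 79.4 at SP8. None of the 10 overlapped a promoter, and their nearest SP4 peaks lay between 686 and 12927 bp away.

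Peaks of very unequal height were also present. The largest excess of DP over SP8 was at an exon region of *Tomm34* (chr2:164054661-164055216), a mitochondrial import gene, with percentile 90.9 at DP (fold enrichment 17.1) and 10.8 at SP8 (3.24). The *Lef1* intron followed, and then an intron region of the nuclear receptor coactivator gene *Ncoa2* (chr1:13331783-13332092), with 79.3 and 9.91. In the reverse direction stood a promoter region 10975 bp from *Ms4a4d* (chr19:11569443-11569698), with 16.6 at DP and 84.9 at SP8, a region 124620 bp from *Pou4f1* (chr14:104336909-104337055), with 31.8 and 90.3, and an intron region of *Cdk8*, a Mediator kinase gene (chr5:146243160-146243508), with 11.8 and 68.2. The *Pou4f1* region was the highest SP8 peak of all members by percentile and was isolated, with the nearest DN peak 116864 bp and the nearest SP4 peak 129001 bp away.

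Among the 118 promoter members, the highest by the lower of the 2 percentiles was at 46.0 (DP) and 56.8 (SP8). It lay on chromosome 12 (chr12:114462704-114462948), with *Adam6a* as the nearest protein-coding gene at 916238 bp. The region itself held a TSS, and genes annotated with other types were left out of that distance. Among the next were promoters of transcripts within *Lmo2*, a haematopoietic adaptor gene (44.4 and 44.7), and *Pcdhgc5* (41.3 and 41.1), and a promoter 8079 bp from *Smc5* (36.2 and 51.0). The *Lmo2* and *Pcdhgc5* regions lay 11843 and 4293 bp downstream of the annotated gene start, so none of these 4 was at the 5′ end of its protein-coding gene.

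Most genes with a member had only 1. Of the 2599 genes, 2209 had 1 member, 336 had 2, 43 had 3 and 11 had 4. *Ssbp2*, a cofactor of LDB1 complexes, and *Camk4*, the calcium/calmodulin-dependent kinase IV gene, each held 4 members inside the gene, among 95 and 52 merged regions. The *Ssbp2* introns ranged from 11.7 to 67.2 at DP and from 7.91 to 33.4 at SP8, and those of *Camk4* from 9.92 to 71.4 and from 22.5 to 42.6. *Cacna1d*, the pore subunit gene of a voltage-gated calcium channel, had 3 members inside and 1 at 39990 bp, and *Cacnb1*, a channel beta subunit gene, had 4 nearby of 45 regions. *Cd8a* and *Rmnd5a* shared the same 4, as did *Prm1*, *Prm2* and *Gm11172*, and 3 of the latter regions were also within 50 kb of *Socs1*. *Gm20388*, an annotated gene that spans 1156 merged regions, also had 4.

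The sequence of the members was richer in G and C than that of the comparison classes. The median GC share of the 200 bp windows was 52.5%, against 49% in DP-and-SP4-only, 51.5% in DP-only, 49% in SP8-only and 51% in all merged regions. CpG dinucleotides averaged 2.23 per 100 bp, against 1.48, 1.57, 1.37 and 2.15. Words of 26 transcription factor motifs were searched on both strands without mismatch, and a match is a description of the sequence, not a binding site. The share of windows with a match was above that of DP-and-SP4-only regions, beyond the 95% Newcombe interval, for 5 motifs and below it for 6. Against DP-only regions the counts were 6 and 6, and against SP8-only regions 7 and 7.

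The CTCF core AGGGGGC, part of the site of the insulator and loop anchor protein CTCF, stood highest against all merged regions. It was in 126 members (9.94%, Wilson interval 8.41% to 11.7%), 2.52% of DP-and-SP4-only, 4.56% of DP-only and 5.39% of SP8-only regions, and 5.63% of all. The differences were 7.42 points (5.73 to 9.28), 5.37 points (3.78 to 7.19) and 4.55 points (2.93 to 6.38), in the same direction on 19, 16 and 17 of 19 chromosomes. In 4 groups of 304 to 330 members ordered by height the share was between 8.78% and 11.1%. In windows of 45% to 55% GC it was 7.88% of members and 2.25%, 3.54% and 5.04% of the comparison classes, and without promoter regions 9.48%, 2.28%, 4.38% and 5.26%. A longer CTCF word (CCA, any 2 bases, AG, any 2 bases, GGC) was in 7.49% of members and in 2.52%, 2.87% and 5.35% of the comparison classes, but also in 6.52% of all merged regions (interval in members 6.17% to 9.07%) and 10.7% of regions open at all 4 stages. The share of all merged regions lay within the interval of the members. These 3 settings were added after the values were seen.

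The RUNX word showed a graded order over the classes in the 200 bp windows. The word TGTGGT was in 20.3% of members, above DP-and-SP4-only regions by 7.45 points (4.90 to 10.1, 18 of 19 chromosomes) and above DP-only regions by 3.61 points (1.36 to 6.03, 14 of 19). It lay below SP8-only regions (25.8%) by 5.49 points (-7.83 to -2.997), a difference that shrank to -2.20 points (-5.43 to 1.26) in windows of 45% to 55% GC and to -1.01 points (-3.32 to 1.45) over whole regions. All merged regions held it in 25.1%. In the 200 bp windows the share of the members thus lay between those of the DP-only and SP8-only classes and below that of all merged regions. The step to SP8-only regions was not held in windows of 45% to 55% GC or over whole regions. Whole regions differed in length, with a median width of 173 bp in members and 125 bp in both DP-only and SP8-only regions. Over whole regions the members thus offered more sequence for a match.

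E-box words, the sites of the E proteins E2A and HEB, showed the opposite gradient. CAGGTG was in 20.9% of members, 28.8% of DP-only and 14.6% of SP8-only regions, with differences of -7.91 points (-10.2 to -5.42) and 6.33 points (4.04 to 8.77). CAGCTG was in 14.1%, 19.8% and 9.90%, with differences of -5.67 points (-7.65 to -3.50) and 4.22 points (2.29 to 6.34). Neither word differed from DP-and-SP4-only regions beyond the interval, at 2.44 points (-0.26 to 5.22) and 0.09 points (-2.25 to 2.52). The ETS word AGGAAGT was in 14.7% of members and 22.1% of DP-and-SP4-only regions, a difference of -7.36 points (-9.90 to -4.73, lower on 16 of 19 chromosomes), and in 9.08% of SP8-only regions. It was in 14.6% of DP-only regions, a difference of 0.18 points (-1.80 to 2.35), and in 15.5% of all merged regions. The members and the DP-and-SP4-only regions, which share DP and differ in the mature stage, thus differed most in the CTCF, RUNX and ETS words. For the ETS word the members were close to DP-only and all merged regions, and the DP-and-SP4-only share was the highest.

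The ROR word AGGTCA, named for a family of nuclear receptors, was in 13.8% of members, 11.3% of DP-and-SP4-only, 16.9% of DP-only, 12.9% of SP8-only and 9.54% of all regions. It was thus common in all 4 classes. The difference from DP-only regions (-3.06 points, -5.01 to -0.92) turned to 0.38 points (-1.50 to 2.46) over whole regions, which were wider in members. EGR (GCGTGGG), a zinc finger family induced by T cell receptor signals, was in 2.52% of members and 1.93% of all regions. The lowest shares against all regions were those of CRE (TGACGTCA, 0.158% against 0.443%), IRF (GAAA, any 2 bases, GAAA, 1.26% against 2.68%) and NF-kB (GGGANTTCC, 0.552% against 0.994%). CRE and NF-kB differed from none of the 3 classes beyond the interval, and IRF from SP8-only regions alone, by -1.62 points (-2.25 to -0.77). This IRF difference was -0.77 points (-1.37 to 0.08) over whole regions and -0.66 points (-1.50 to 0.60) in windows of 45% to 55% GC, so it was not held in either. Whole regions were wider in members than in SP8-only regions. The GC-rich words GGGCGG (SP and KLF factors) and GGGNGGGG (PATZ1) were in 10.4% and 15.8% of members, above all 3 classes by 3.04 to 5.46 points. Within windows of 45% to 55% GC none of these excesses held, and GGGCGG then differed from SP8-only regions by -1.87 points (-3.10 to -0.24). CTTTGA, the word of TCF7 and LEF1, differed from DP-and-SP4-only regions by -4.71 points (-7.17 to -2.15), and by -1.34 points (-4.67 to 2.16) in such windows.

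**Figure D4:**
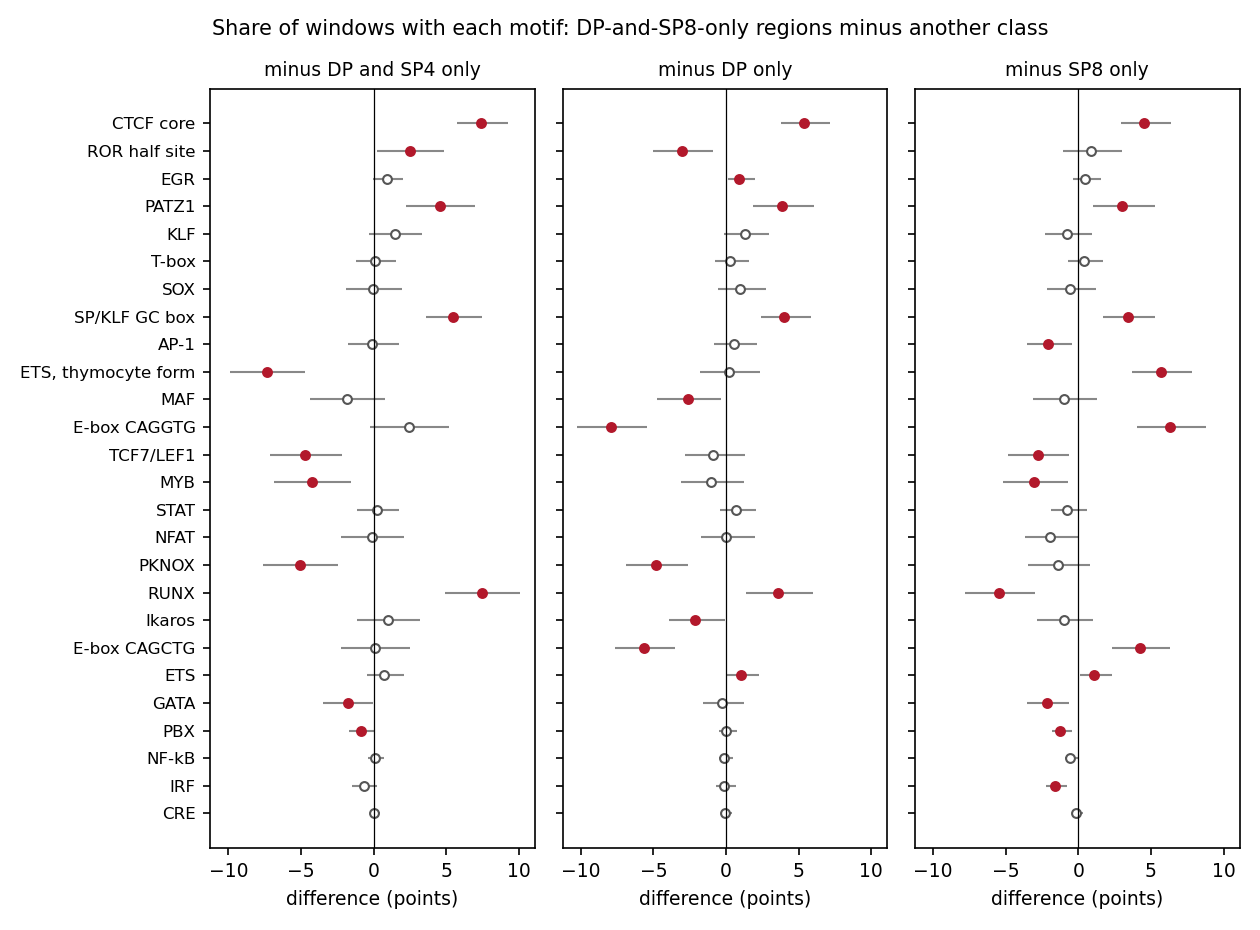
Difference (x axis, percentage points) between DP-and-SP8-only regions and each comparison class in the share of 200 bp windows with each of 26 motifs (y axis, ordered by the ratio to all merged regions); lines are 95% Newcombe intervals and filled points those that exclude 0. The CTCF core is higher than in all 3 classes, while RUNX is 7.45 points higher than in DP-and-SP4-only and 5.49 points lower than in SP8-only regions.

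The neighbourhood of the members leaned towards SP8. Among merged regions within 50 kb that were called at only 1 of SP4 and SP8, with the DP-and-SP8-only and DP-and-SP4-only classes left out, 2365 of 5300 around members were SP8 regions (44.6%, 43.3% to 46.0%). The share was 39.1% around DP-and-SP4-only regions, a difference of 5.49 points (3.78 to 7.20), higher on 16 of 19 chromosomes. Around DP-only regions it was 40.9%, a difference of 3.75 points (2.26 to 5.24, 16 of 19). Around SP8-only regions it was 44.4%, a difference of 0.18 points with an interval (-1.32 to 1.69) that includes 0. Other SP8-only regions counted as neighbours there, whereas the members' own class was left out, so these shares rest on unlike sets. Over the genome 39.1% of such regions were SP8 regions. Within 10 kb the share around members was 46.9% against 38.7% for DP-and-SP4-only, and within 200 kb 42.4% against 39.6%. Neighbours were partly shared, 1443 of them between members and DP-and-SP4-only regions, and the intervals treat them as independent. Their calls come from the same SP4 and SP8 lists that chose the members, and many lay close by. The lean is therefore not independent of the choice. At 44.6%, more of the neighbours around members were SP4 than SP8 regions, as over the whole genome.

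**Figure D5:**
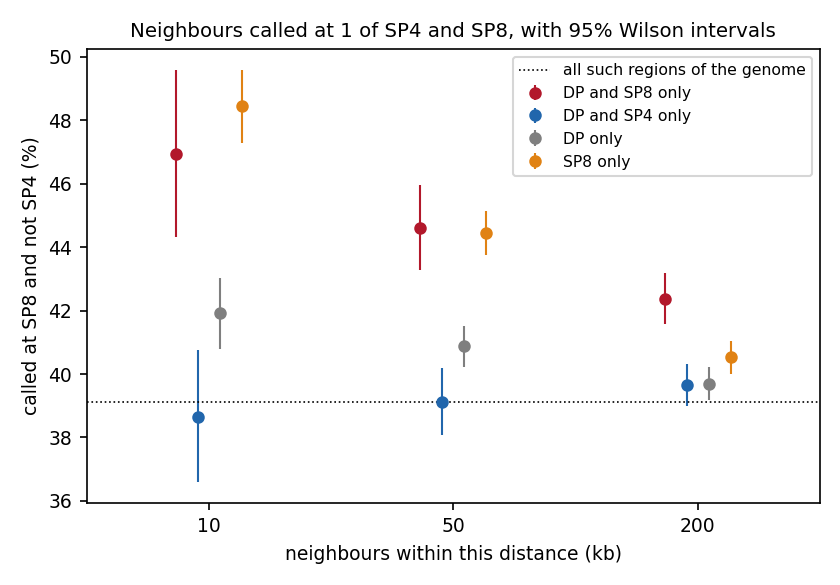
Share (y axis, %, not starting at 0) called at SP8 among neighbouring regions called at only 1 of SP4 and SP8, within 10, 50 and 200 kb (x axis) of the DP-and-SP8-only regions and 3 comparison classes; points are shares, lines 95% Wilson intervals, and the dotted line the share over the genome. The points of the DP-and-SP8-only regions (46.9%, 44.6% and 42.4%) lie above those of the DP-and-SP4-only regions (38.7%, 39.1% and 39.6%) at each distance.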

How the data were processed

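The data are 16 ATAC-seq libraries, from 4 mice that each gave 4 thymocyte stages. The authors aligned reads to mm10 with BWA, removed duplicates, sampled all libraries down to their median depth, pooled the mice of a stage and called peaks with MACS2 at an FDR of 5%. Tool versions are not given in the sources used here. Each deposited list gives a peak's interval, summit, score, fold enrichment over local background (a ratio) and −log10 p-value and −log10 q-value, all as the authors' caller wrote them. The lists hold no read counts, so the depth behind a peak is unknown here, a region without a peak may hold signal under the threshold, and intervals cover counting error only.

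Peaks sharing at least 1 bp were merged, and regions were classed by the stages called (Python 3.11.15, numpy 2.4.6, pandas 2.3.3, scipy 1.17.1; figures with matplotlib 3.10.9). Transcripts came from GENCODE M21 and RefSeq, sequence from the RefSeq GRCm38 assembly, whose chromosomes no region overran. Shares carry 95% Wilson intervals and differences 95% Newcombe intervals, and TSS distances were compared with the Kolmogorov-Smirnov test used in the study, with Bonferroni correction over the 3 comparison classes. Windows of 200 bp were searched for 26 motif words, and genes of 13 lists were linked within 50 kb. Members, lists and motifs were chosen with earlier results of these data known.

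The text names, by rule, the 10 members with the highest lower percentile, all members near genes of the CD8 lineage, DP programme and CD4 lineage lists, the 10 genes with most members, the 5 highest promoter members, the 3 largest excesses in each direction, and the 3 regions just inside and just outside the threshold. Members of other gene lists are named as whole lists, and any other named feature was chosen after its values were seen. A few items that the rule covers are not reported here. Scripts were tested on simulated lists, where 20000 of 20000 sites received their true stage set. Alternatives changed the q-value threshold, the number of peaks, the overlap, the distance to DN and SP4 peaks, the height, the promoter, the window and the link distance. A longer CTCF word, windows of medium GC and the removal of promoter regions were added after seeing the data.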

Additional observations from a re-analysis of the deposited data

How the results depend on the processing

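Of 392 values recomputed under an alternative, 337 kept their direction and side of the threshold or stayed within their interval. The number of DP-and-SP8-only regions was 2856 with equal numbers of peaks from each list, 697 without DN or SP4 peaks within 500 bp and 11 with both peaks at or above their lists' medians. The last setting left too few regions to compare classes (under 50), and 0% of them overlapped a promoter. The promoter share was 4.59% without peaks within 500 bp, where its excess over DP-and-SP4-only regions fell to 1.21 points and the TSS differences to -1071 bp (DP-and-SP4-only) and -901 bp (SP8-only). It was 17.0% for promoters of 1000 bp and 5.68% for protein-coding transcripts, and the differences from all 3 classes held in both. Genes with a member numbered 1189 within 10 kb and 1103 by nearest gene. The share of windows changed sign against DP-only regions for AGGAAGT with equal numbers of peaks (-1.77 points) and, over whole regions, for AGGTCA (0.38 points) and CTTTGA (2.19 points). Against SP8-only regions it changed sign over whole regions for CTTTGA (0.79 points) and TGACAG, the PKNOX word (2.54 points), and in windows of 45% to 55% GC, a setting chosen after seeing the data, for CTTTGA (1.72 points), GGGCGG (-1.87 points) and GGGNGGGG (-1.61 points). GGGNGGGG also turned against DP-and-SP4-only regions there (-0.49 points). Whole regions were wider in members (median 173 bp) than in DP-only and SP8-only regions (125 bp each). The causes were not tested. A q-value threshold of 0.001 and a mutual overlap of DP and SP8 peaks reversed no value. No paired analysis was possible because the peaks were called on reads pooled over mice, and for the same reason no mouse could be left out.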

Other observations

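Beyond the listed motifs, all words of 6 bases were counted in the 200 bp windows. Of 2080 words, 1348 were in at least 5% of members. The highest ratio to all merged regions was that of GACCCC, in 183 members (14.4%) against 6.82% of all regions, 4.87% of DP-and-SP4-only, 10.5% of DP-only and 8.73% of SP8-only regions. GGGTCA (12.5% against 6.64%), AGGGTC (14.2% against 7.78%) and GCCCCC (24.7% against 13.7%), which overlaps the CTCF core, followed. GGGTCA was in 11.8% of DP-only regions. The lowest ratio was that of TAGACA, in 5.68% of members and 9.08% of all regions, followed by the A-rich words GGAAAA (7.18% against 11.3%) and GAAAAC (7.10% against 11.1%). AACCAC, which overlaps the RUNX word, was in 13.0% of members, 8.78% of DP-and-SP4-only, 10.7% of DP-only and 18.4% of SP8-only regions. The words overlap and the 10 at each end were picked for their ratios, so these values are a description without a test.

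On average 17.6% of the bases of a member's window were soft-masked as repeats in the reference, against 18.04% in DP-and-SP4-only, 17.8% in DP-only and 19.5% in SP8-only regions. Over all merged regions the mean was lower, at 13.9%. Of the members, 23 held 2 of the 3 leading motif words (CTCF core, ROR and EGR), 287 held 1 and 0 held all 3. These are 1.81% and 22.6% of members with 2 and 1 words, against 0.775% and 15.5% of all merged regions, and the 3 words were picked for their high ratio in members. The same shares were 0.565% and 14.3% of DP-and-SP4-only, 0.977% and 21.1% of DP-only and 0.881% and 18.5% of SP8-only regions. Regions called at DP, SP8 and DN (4172) or at DP, SP8 and SP4 (3286) had higher DP and SP8 peaks, with medians of 31.8 and 23.0 and of 27.0 and 33.5.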
